A study of Mus musculus with 20 samples.

Results

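The 5 hippocampal libraries of tumour-free mice given immune checkpoint inhibitors (ICI) were compared with the 5 of tumour-free mice given a control antibody. These 10 of the 20 libraries of the series were taken by their sample titles. All 10 animals were adult male wild-type mice, 10 to 12 weeks old. Control mice received isotype-matched antibody into the peritoneum. ICI mice received anti-CTLA-4 at 1 mg per dose, 3 doses a week, together with anti-PD-1 at 200 µg per dose, 2 doses a week, by the same route. The labels give 3 weeks of ICI for tumour-bearing mice and no duration of their own for the tumour-free ones. Brains were collected 72 hours after the final injection, and bulk RNA from a single frozen hippocampus per mouse was sequenced. The other 10 libraries came from mice with D4M-3A.UV2 melanomas, 5 with control antibody and 5 with ICI.

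CTLA-4 and PD-1 are inhibitory receptors that T cells display after activation, and antibodies that block them lift this restraint. Treated animals and patients can develop inflammation in healthy organs, the brain among them. In the hippocampus the cells that could respond include microglia, the resident macrophages; the endothelium that forms the blood-brain barrier and is in contact with circulating antibody and leukocytes; astrocytes; and the neurons of fields CA1 and CA3 and the dentate gyrus. The comparison of mice without a tumour asks what the antibodies do in the absence of cancer.

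Libraries held between 21990624 and 25032254 counts, with at least 1 count for 24674 to 25860 genes. The mean correlation of log2 counts per 1000000 (CPM) was 0.9769 over the 20 pairs of libraries within a group and 0.9775 over the 25 pairs between the groups. Control replicate 4 stood apart: on the first principal component of the 10 libraries, with 32.3% of the variance, it lay at 71.1 and the others between -45.6 and 34.8. Its mitochondrial transcripts took 5.10% of the counts, beside 3.27% to 3.62% in the other controls and 3.08% to 3.50% in ICI. Markers of neurons, of fields CA1 and CA3 and of the dentate gyrus were present in every library. Neighbouring tissue was unequal within both groups, with summed choroid plexus markers between 170 and 9302 CPM in control and between 136 and 3179 CPM in ICI. The numbers in the library names do not interleave between the groups, and an effect of batch in step with them cannot be told apart from that of the antibodies. P-values come from a fit of all 20 libraries and measure the spread between mice within groups, tumour-bearing mice included.

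No gene passed the test. With edgeR's quasi-likelihood test and Benjamini-Hochberg adjustment, 0 of 18427 genes (0%) had an adjusted p under 0.05, and the smallest adjusted p was 0.48. At an unadjusted p under 0.05, 383 genes (2.08%) were higher and 581 (3.15%) lower in ICI, 964 in all beside the 921 that the threshold alone gives. All ICI libraries lay above all controls for 77 genes (0.418%) and below them for 86 (0.467%). DESeq2 called 1 gene, Lsr, limma voom 0, and edgeR with 1 surrogate variable 2, Lsr and the Wnt co-receptor Lrp5. The genes below are therefore described by their levels, and "higher" and "lower" refer to group means in these libraries. For genes of 1 CPM or more, the median standard error (SE) of the log2 fold change was 0.14.

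The lowest p belonged to Lsr, which encodes the lipolysis-stimulated lipoprotein receptor, a protein of the junctions where 3 cells meet, in brain mainly in endothelium. Its level in the 5 control libraries was 6.15, 6.51, 5.38, 4.8 and 6.85 CPM, and in the 5 ICI libraries 3.6, 3.66, 3.33, 4.49 and 4.04 CPM. Every ICI library lay below every control, with the highest ICI value close under control replicate 4. The log2 fold change was -0.63 (SE 0.12), a decrease of the mean from 5.94 ± 0.840 to 3.83 ± 0.449 CPM (SD, n = 5 each), with an edgeR adjusted p of 0.48. Over the alternative analyses that p ran from 0.00844, by DESeq2, to 1, and the fold change from -0.71 to -0.58. Lsr (chromosome 7, 30957770 to 30973464, minus strand) overlaps 2 genes of the opposite strand, whose own counts equal 155% of those of Lsr. Whether strand was used in counting is not given, so part of the value could belong to them. How many reads overlapping genes share is not known, here and below.

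The next 4 genes by p that were lower in ICI were Itgb5, Bsg, Lyz2 and Npc2. Bsg, basigin, a membrane glycoprotein abundant on brain endothelium, was at 390, 527, 440, 521 and 492 CPM in control and at 322, 318, 352, 345 and 389 CPM in ICI. The groups touched without overlapping, at 390 and 389 CPM, and the log2 fold change was -0.46 (SE 0.11). Itgb5, the integrin beta 5 subunit, was at 57.9, 60.6, 55.3, 52.7 and 58.7 CPM in control and at 41.7, 46.5, 44.3, 50.1 and 46.7 CPM in ICI. All 5 ICI values were below the controls, and the log2 fold change was -0.32 (SE 0.073). Lyz2, lysozyme 2 of macrophages and other myeloid cells, was at 6.74, 6.85, 5.79, 6.18 and 6.32 CPM in control and at 2.7, 2.91, 3, 5.07 and 4.89 CPM in ICI. ICI replicates 1 to 3 were lowest and replicates 4 and 5 came near the controls, for a log2 fold change of -0.78 (SE 0.18), and its near-identical neighbour Lyz1 could share its reads. Npc2, which hands cholesterol out of lysosomes, was at 53.6, 71.1, 56.8, 71.8 and 72.8 CPM in control and at 43.5, 47.3, 40.9, 51.8 and 53.9 CPM in ICI. Here ICI replicate 5 reached the lowest control, and the log2 fold change was -0.46 (SE 0.11). The adjusted p was 0.766 for each of these 4 genes.

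The remaining 7 of the 12 lower genes all had an adjusted p of 0.766. Ctsh, the lysosomal protease cathepsin H, went from 11.2 ± 1.11 to 7.98 ± 1.34 CPM. Ggt5, a gamma-glutamyltransferase that cleaves leukotriene C4, went from 4.41 ± 0.866 to 2.49 ± 0.404 CPM, and Foxq1, a forkhead transcription factor expressed in brain endothelium, from 2.71 ± 0.857 to 1.4 ± 0.239 CPM. Tspan11, a tetraspanin, had the lowest fold change of the 12, a log2 value of -1.33 (SE 0.32) from 1.83 to 0.726 CPM. Pon2, an antioxidant lactonase, Vkorc1, the vitamin K epoxide reductase, and the membrane protein Ginm1 had log2 fold changes of -0.30, -0.40 and -0.36. The groups did not overlap for any of these 7 but Ctsh. Foxq1 shares bases with an opposite-strand gene whose own counts equal 43.8% of those of Foxq1.

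The 12 leading genes higher in ICI had log2 fold changes between 0.22 and 0.44. Ints6, a subunit of the Integrator complex that cleaves nascent RNA, was at 18.9, 23.4, 20.6, 15.3 and 20.3 CPM in control and at 27.2, 27.4, 26.2, 27.4 and 25.5 CPM in ICI. The ICI values lay close together and above every control, and the log2 fold change was 0.44 (SE 0.094). Prkci, the atypical protein kinase C iota of cell polarity, was at 59.2, 56.8, 55.5, 55.2 and 52.9 CPM in control and at 70.3, 69.3, 61.9, 60.5 and 63.1 CPM in ICI. There was no overlap, with a log2 fold change of 0.22 (SE 0.058). Gcc2, a golgin of the trans-Golgi, was at 56.4, 66.5, 63, 66.7 and 59.9 CPM in control and at 73.6, 84, 66.9, 75 and 70.8 CPM in ICI. Its groups met at 66.7 and 66.9 CPM, and the log2 fold change was 0.25 (SE 0.070). Srp54c, a copy of the signal recognition particle subunit, was at 27, 25.8, 26.7, 25.1 and 23.4 CPM in control and at 31.1, 29, 30.6, 29.7 and 29.3 CPM in ICI. Its log2 fold change was 0.23 (SE 0.064) without overlap, but near-identical copies of this gene could share its reads. Capn7, a calpain protease, was at 43.3, 48, 42.9, 41.1 and 43.9 CPM in control and at 48.8, 53, 55.7, 49.9 and 48 CPM in ICI, a log2 fold change of 0.22 (SE 0.065). Its highest control and its lowest ICI value are the same when rounded. An opposite-strand gene that overlaps Capn7 has counts of its own equal to 239% of those of Capn7.

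For the other 7 genes of the higher 12 the log2 fold changes ran from 0.22 to 0.37. They were Mthfd1l, which makes formate in mitochondria, the ubiquitin ligase Ubr3, the methyl-DNA binding repressor Zbtb33, the mitochondrial phosphatase Pptc7, the chromatin protein Epc2, the DNA-binding protein Ahdc1 and the exosome ribonuclease Dis3. Mthfd1l went from 13.3 ± 1.73 to 16.9 ± 0.294 CPM and Ahdc1 from 75.3 ± 12 to 97.4 ± 7.91 CPM. Mthfd1l, Pptc7 and Dis3 were without overlap. For Dis3, control replicate 4 was at 8.72 CPM and the other controls between 11.7 and 12.2 CPM. Overlapping opposite-strand genes have counts of their own equal to 125% of those of Zbtb33 and 66.2% of those of Dis3. The adjusted p was 0.766 for all 12 higher genes, and all 24 leading genes kept their direction in the 20 alternative analyses. The plot of single libraries shows how close the groups are for most of them.

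**Figure D1:**
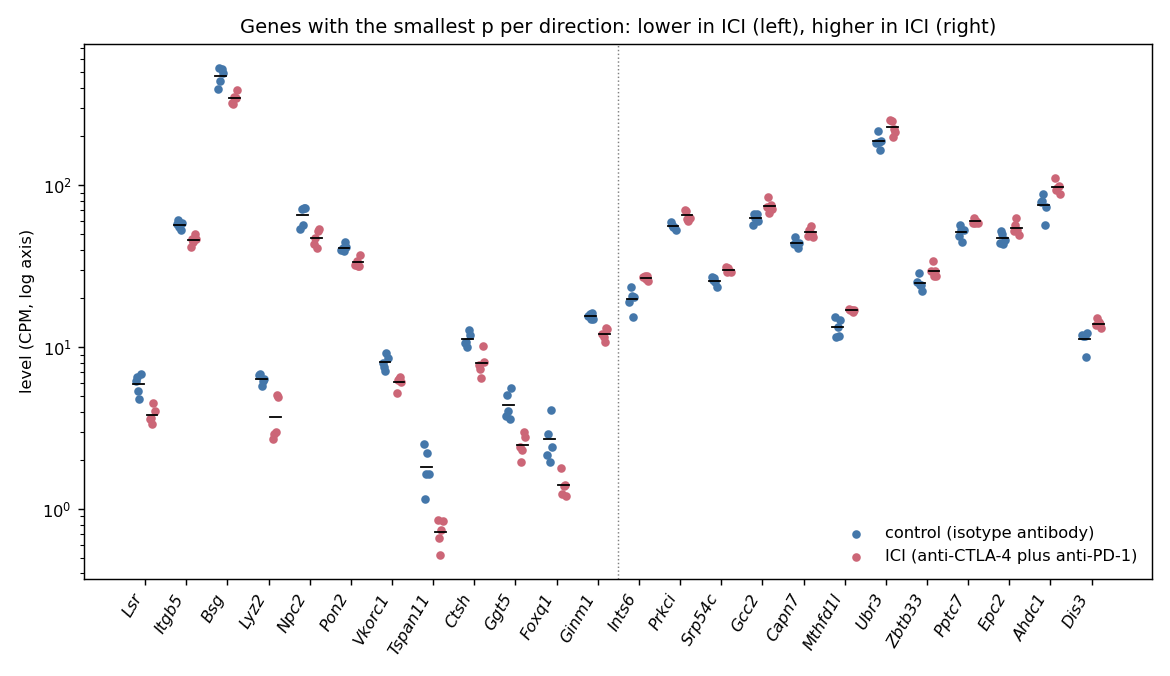
Level of the 12 lower (left) and 12 higher (right) genes with the smallest p, in CPM on a log axis. Each point is 1 library, 5 control and 5 ICI per gene, and the bar is the group mean; for Lsr all ICI points, at 3.33 to 4.49 CPM, lie under the control points, at 4.8 to 6.85 CPM.

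Over 50 lists of cell type markers and pathway genes, with 740 different genes tested, 503 genes (68%) were lower in ICI, beside 52% of all tested genes. At an unadjusted p under 0.05, 64 listed genes (8.65%) were lower and 5 (0.676%) higher, beside 3.15% and 2.08% of all tested genes. These numbers were 54 and 1 without control replicate 4 (7.3% and 0.135%, beside 2.54% and 1.1% of all genes). With 4 tissue scores as covariates they were 61 and 20 (8.24% and 2.7%, beside 3.71% and 3.43%). With the red blood cell score they were 20 and 3 (2.7% and 0.405%, beside 1.15% and 0.738%). The median of all listed genes was -0.14, or -0.045 without control replicate 4 and -0.053 with the red blood cell score. The median log2 fold change was under 0 for 37 lists and over 0 for 13, beside a median of -0.0098 over all genes. Of the 50 list medians, 34 kept their sign in all 20 alternatives and 43 were off by more than 1.5 times in at least 1. In bulk tissue, fewer cells of a type and less RNA per cell cannot be told apart.

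Endothelial markers shared a direction. All 15 endothelial markers were lower in ICI, with a median log2 fold change of -0.29, and 6 of them (40%) had an unadjusted p under 0.05. Pecam1, the adhesion molecule at contacts between endothelial cells, was at 22.4, 20, 19.2, 19.7 and 24.5 CPM in control and at 16.7, 14.5, 13.6, 17 and 17.6 CPM in ICI. Every ICI library was below every control. The log2 fold change was -0.42 (SE 0.11), and edgeR's adjusted p was 0.766. Cldn5, the main claudin of blood-brain barrier tight junctions, was at 37.5, 25.1, 29.4, 59.1 and 33.3 CPM in control and at 23.2, 18.8, 24.1, 23.5 and 27.5 CPM in ICI. Control replicate 4 had the highest Cldn5 level, and ICI replicate 5 lay above the lowest control. The other 4 were Emcn, Itm2a, Tie1 and Eng. Emcn, an endothelial sialomucin, had a log2 fold change of -0.54 and the membrane protein Itm2a one of -0.40. The receptor Tie1 had one of -0.37 and the TGF-beta co-receptor Eng one of -0.30. An opposite-strand gene that overlaps Eng has counts of its own equal to 53.4% of those of Eng. Without control replicate 4, all 15 markers were still lower, the median was -0.38 and 8 had an unadjusted p under 0.05.

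The score of the endothelial list, its mean log2 CPM in a library, was 4.43, 4.20, 4.21, 4.19 and 4.52 in control and 4.02, 3.87, 3.89, 4.07 and 4.23 in ICI. ICI replicate 5 was the only ICI library above any control, and the difference of the means was -0.29 with a pooled SD of 0.1507.

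Mural cells of vessels went the same way. Of 11 pericyte and smooth muscle markers, 10 were lower, with a median log2 fold change of -0.37, or -0.21 without control replicate 5, and 4 (36.4%) had an unadjusted p under 0.05. These were Acta2, smooth muscle actin, from 13.2 ± 3.25 to 7.75 ± 1.94 CPM, Vtn, vitronectin, made by brain pericytes, from 73.5 ± 15.5 to 52.4 ± 10 CPM, the pericyte signalling regulator Rgs5, from 83.1 ± 6.01 to 71.4 ± 8.51 CPM, and the aminopeptidase Anpep, from 5.39 ± 2.37 to 3.36 ± 1.08 CPM. The groups overlapped for each of them. Abcc9, a channel subunit of pericytes, had the highest log2 fold change of the list, 0.14 (SE 0.22), which was -0.014 without control replicate 4.

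Among 19 genes of barrier junctions and transport, 14 were lower and 5 higher, with a median log2 fold change of -0.22. With the red blood cell score as a covariate 11 were lower and 8 higher, with a median of -0.12, and 1 in place of 5 had an unadjusted p under 0.05. Besides Lsr, 4 had an unadjusted p under 0.05: the junctional adhesion molecule F11r, with a log2 fold change of -0.59, the thyroid hormone transporter Slco1c1, with -0.47, the leukocyte adhesion receptor Vcam1, with -0.43, and Plvap, a component of fenestrated endothelium, with -0.40. Vcam1 was at 30.2, 33.9, 30.7, 27.7 and 35 CPM in control and at 21.1, 23.2, 17.7, 26.2 and 28.9 CPM in ICI. Only ICI replicate 5 exceeded a control, replicate 4. The most abundant members did not share this direction alike: Tjp1, a scaffold of tight junctions, had a log2 fold change of 0.15 (SE 0.15), and Slc2a1, the glucose transporter of the barrier, one of -0.15 (SE 0.19). With 4 tissue scores as covariates, those of choroid plexus, striatal, dentate granule and neocortical markers, the endothelial median was -0.17 and 13 of 15 markers were lower.

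Markers of blood, meninges and choroid plexus were also lower in their group means. Control replicate 4 had the highest red blood cell score, 2.73, and the lowest endothelial score among controls, 4.19. All 5 red blood cell genes were lower, with a median log2 fold change of -1.09, or -0.61 without control replicate 4. Hba-a1, an alpha globin, was at 5.76, 3.36, 6.29, 16 and 7.02 CPM in control and at 0.214, 4.86, 0.429, 5.44 and 3.24 CPM in ICI. ICI replicates 1 and 3 were nearly free of it, control replicate 4 had the most, and of the others replicates 2 and 4 lay within the control range. Its copy Hba-a2 and the beta globins Hbb-bs and Hbb-bt could share reads among themselves. The summed level of the 5 genes was 11.1 to 46.7 CPM in control and 1.5 to 18.2 CPM in ICI. With the red blood cell score as a covariate, which was chosen after seeing the data, all 15 endothelial markers were lower, with a median of -0.25 and 3 at an unadjusted p under 0.05. The part of residual blood in the vascular values was otherwise not tested.

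All 12 meningeal fibroblast genes were lower in ICI, with a median log2 fold change of -0.60, or -0.23 without control replicate 1, and summed levels of 132 to 413 CPM in control and 83.2 to 308 CPM in ICI. Igf2, a growth factor of meninges and choroid plexus, was at 112.3, 237.8, 132.5, 32.06 and 207.6 CPM in control and at 40.45, 56.85, 34.67, 67.75 and 120.7 CPM in ICI. Control replicate 4 was the lowest of all and ICI replicate 5 exceeded control replicate 1. All 14 choroid plexus genes were lower too, with a median of -1.25, or -0.70 without control replicate 2, but their spread was wide: Ttr, transthyretin, was at 15.6, 5632, 2298, 19.5 and 4580 CPM in control and at 2.14, 617, 266, 1663 and 2031 CPM in ICI. Within the control group alone Ttr differed by more than between the groups, and its log2 fold change was -1.45 (SE 1.49), or 0.40 with 4 tissue scores as covariates.

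**Figure D2:**
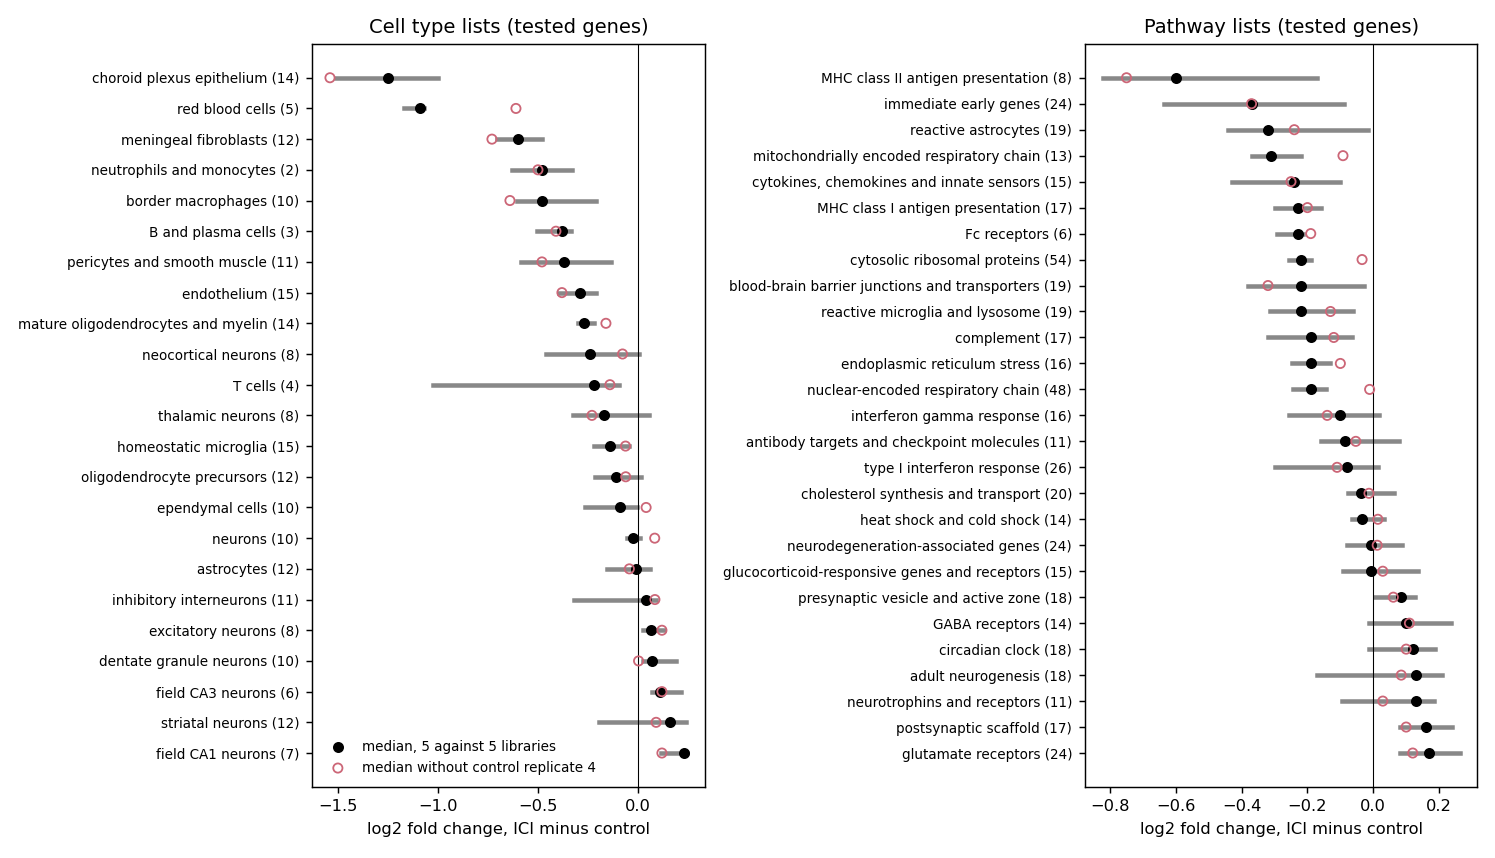
Median log2 fold change, ICI minus control, of each cell type list (left) and pathway list (right), with the number of tested genes in brackets. Black points are medians over 5 against 5 libraries, grey bars the quartiles of the members, open circles the medians without control replicate 4; endothelium lies at -0.29 and -0.38, and cytosolic ribosomal proteins at -0.22 and -0.034.

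Microglia, the brain's own macrophages, showed small differences. Of 15 homeostatic markers 13 were lower and 2 higher, with a median log2 fold change of -0.14. An unadjusted p under 0.05 was found for 3 members, among them the Fc receptor-like gene Fcrls, from 20.7 ± 3.37 to 16.5 ± 1.81 CPM, and the secreted protein Olfml3, from 17.5 ± 2.8 to 14.4 ± 1 CPM. Csf1r, the receptor on which microglia depend, was at 81.1 ± 6.82 CPM in control and 82.2 ± 2.64 CPM in ICI, a log2 fold change of 0.019 (SE 0.078) whose sign changed in 5 of the alternatives. The median of the list was -0.062 without control replicate 4, and 1 member had an unadjusted p under 0.05.

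Lysosomal genes were also mostly lower. In the list of reactive microglia and lysosome, 15 of 19 were lower, with a median of -0.22, and 6 (31.6%) had an unadjusted p under 0.05. The protease genes among them were Ctsd, cathepsin D, from 218 ± 35.7 to 168 ± 12.1 CPM, Ctsl, cathepsin L, from 75.7 ± 10.5 to 62.8 ± 5.58 CPM, and Ctsz, cathepsin Z, from 39.1 ± 8.37 to 30.5 ± 6.38 CPM. The others were the tetraspanin Cd63 of late endosomes, from 93.1 ± 16.9 to 64.3 ± 10.4 CPM, the lysosomal membrane protein Lamp2, from 84.6 ± 15.6 to 69.2 ± 5.64 CPM, and Apoe, the lipid carrier that astrocytes and reactive microglia secrete, from 1660 ± 265 to 1430 ± 92.9 CPM. All 6 overlapped between the groups. An opposite-strand gene that overlaps Ctsz has counts of its own equal to 129% of those of Ctsz. When control replicate 4 was left out, 16 of 19 were lower with a median of -0.13, and 3 had an unadjusted p under 0.05. With the red blood cell score as a covariate this number was 2.

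Antigen presentation by MHC class I, through which cells show peptides to CD8 T cells, was lower in 16 of 17 genes, and the median log2 fold change was -0.23. An unadjusted p under 0.05 was found for 5 (29.4%). Calr, calreticulin, a chaperone that loads class I molecules and folds many other glycoproteins, was at 374, 423, 386, 428 and 363 CPM in control and at 312, 330, 332, 335 and 326 CPM in ICI. Tap2, a subunit of the peptide transporter, was at 15, 14.4, 15.4, 14.3 and 15.6 CPM in control and at 11.3, 11.8, 13, 14 and 12.5 CPM in ICI. Neither gene overlapped between the groups, and the log2 fold changes were -0.27 (SE 0.087) and -0.26 (SE 0.10). The nonclassical genes H2-T23 and H2-T22 had log2 fold changes of -0.76 and -0.22 and the light chain B2m one of -0.34, with overlap. The list's score was 3.80 ± 0.14 in control and 3.55 ± 0.20 in ICI (SD, n = 5 each), and the libraries overlapped. Leaving out control replicate 4, 16 of 17 were lower, with a median of -0.20 and 3 at an unadjusted p under 0.05. The red blood cell score as a covariate gave a median of -0.14, with 1 such gene.

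MHC class II genes, which mark border macrophages and dendritic cells in brain, were at low levels. Of 8 tested, 7 were lower, with a median log2 fold change of -0.60. The tally was 5 of 8 lower, with a median of -0.75, without control replicate 4, where 3 in place of 1 had an unadjusted p under 0.05. With the red blood cell score as a covariate 0 had such a p by edgeR. H2-Eb1 was at 3.13, 4.08, 2.32, 1.48 and 3.73 CPM in control and at 1.37, 0.662, 0.667, 2.14 and 2.49 CPM in ICI, and ICI replicates 4 and 5 lay within the control range (unadjusted p = 0.0344 by edgeR). Border macrophage markers were lower in 9 of 10 genes, with a median of -0.48 and 0 at an unadjusted p under 0.05 by edgeR. The median was -0.083 without control replicate 1 and -0.31 without ICI replicate 3. Their scores overlapped widely, from -0.38 to 0.92 in control and from -0.78 to 0.41 in ICI.

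Receptors that bind the constant part of antibodies were lower in 6 of 6 tested genes, with a median of -0.23. Fcgrt, the neonatal Fc receptor that recycles IgG in endothelium and macrophages, went from 18.9 ± 2.67 to 15.2 ± 2.78 CPM, a log2 fold change of -0.31 (SE 0.13). Trim21, a cytosolic antibody receptor, went from 3.34 ± 0.773 to 2.3 ± 0.508 CPM, a log2 fold change of -0.53 (SE 0.20). Both had an unadjusted p under 0.05 and groups that overlap, and 1 in place of 2 members had such a p without control replicate 4 or with either kind of covariate.

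Complement genes were lower in 14 of 17, with a median of -0.19, or -0.12 without control replicate 4, -0.11 without ICI replicate 2 and -0.30 without ICI replicate 4. The serine protease C1s1, from 1.68 ± 0.462 to 1.07 ± 0.176 CPM, and the inhibitor Cd59a, from 8.08 ± 4.48 to 4.27 ± 1.89 CPM, had an unadjusted p under 0.05, which 0 members had by edgeR with the red blood cell score as a covariate. C3, the central component, had the highest log2 fold change, 0.47 (SE 0.74), with ICI replicate 4 at 9.43 CPM and the other ICI libraries between 1.05 and 3.66 CPM. Without that library it was -0.31.

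Genes of cytokine and interferon signalling were lower more often than higher in ICI, by small amounts. Of 15 tested genes of cytokines, chemokines and innate sensors, 12 were lower and 3 higher, with a median log2 fold change of -0.24, and 5 lower genes had an unadjusted p under 0.05, or 1 with the red blood cell score as a covariate. Tgfb1, the cytokine TGF-beta 1, was at 5.06, 5.1, 6.11, 6.37 and 4.96 CPM in control and at 4.03, 4.94, 4.62, 4.12 and 4.58 CPM in ICI. Rela, the p65 subunit of NF-kappaB, was at 28.4, 25.8, 28.7, 26.1 and 32.2 CPM in control and at 22.8, 24.8, 20.8, 25.5 and 25.6 CPM in ICI. Both were without overlap, by narrow margins, with log2 fold changes of -0.31 (SE 0.10) and -0.24 (SE 0.095). The bacterial lipoprotein sensor Tlr2, its adaptor Myd88 and the chemokine Cxcl16 had log2 fold changes of -0.80, -0.37 and -0.53. An opposite-strand gene that overlaps Myd88 has counts of its own equal to 1290% of those of Myd88, and for Cxcl16 that figure is 53.2%. Part of the values of Myd88 and Cxcl16 could belong to these neighbours. Summed counts over 5 libraries were 6 in control and 5 in ICI for Tnf, 4 and 6 for Il6, and 25 and 14 for Il1b, too few to test, as was Ifng with 0 and 2.

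Of 26 type I interferon response genes 19 were lower and 7 higher, with a median of -0.079. With 4 tissue scores as covariates 12 were lower and 14 higher, with a median of 0.014, so this direction was not stable. Bst2, tetherin, went from 5.51 ± 2.12 to 3.23 ± 1.36 CPM and Rsad2, viperin, from 1.34 ± 0.339 to 0.875 ± 0.391 CPM, both at an unadjusted p under 0.05. Ifit3 had the highest log2 fold change, 0.20. Of 16 interferon gamma response genes 10 were lower and 6 higher, with a median of -0.10, or -0.059 without ICI replicate 1, -0.052 with the red blood cell score as a covariate and -0.18 by limma voom, and 1 member passed the unadjusted threshold in each direction. These were the GTPase Irgm1, with a log2 fold change of -0.38, and the kinase Jak1, with 0.17, which no longer passed it without control replicate 4.

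The antibody targets themselves were nearly absent. Pdcd1, the gene of PD-1, had 9 counts in the 5 control libraries together and 11 in the 5 ICI libraries, and Ctla4 had 11 and 7, so neither could be tested. Of their ligands, Cd274, the gene of PD-L1, was at 2.3 ± 0.370 CPM in control and 2.41 ± 0.273 CPM in ICI, a log2 fold change of 0.070 (SE 0.23), and Pdcd1lg2 had 3 and 10 counts. Cd86, a ligand of CTLA-4 on microglia, was at 1.646, 1.446, 1.458, 1.568 and 1.477 CPM in control and at 1.287, 1.236, 1.238, 1.236 and 1.155 CPM in ICI. Its groups were without overlap, with a log2 fold change of -0.30 (SE 0.22), while Cd80, the other ligand, had 33 and 38 counts. Btla, an inhibitory receptor of lymphocytes, was at 0.47, 0.383, 0.456, 0.369 and 0.369 CPM in control and at 0.558, 0.839, 0.619, 0.577 and 0.578 CPM in ICI. All ICI libraries were above the controls, with a log2 fold change of 0.62 (SE 0.24) at a low level, and an adjusted p of 0.766 by edgeR.

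Most T cell genes had few counts in both groups. Only 4 of 16 had enough to test, 1 higher and 3 lower, and their median of -0.22 ran from -0.045 without control replicate 3 to -0.41 without ICI replicate 1. The T cell receptor complex genes Cd3e, Cd3d and Cd3g had 6, 0 and 3 counts in control and 9, 1 and 3 in ICI, and Cd8a had 3 and 8. Trbc2, a constant segment of the T cell receptor beta chain, was at 1.61, 0.128, 0.0911, 7.38 and 3.61 CPM in control and at 0.0858, 0.177, 0.191, 0.206 and 0.667 CPM in ICI. The log2 fold change was -3.25 (SE 1.23), at an unadjusted p of 0.0159 and an adjusted p of 0.766 by edgeR. Over the alternative analyses the fold change ran from -3.92 to -1.13. By edgeR 0 of the tested T cell genes had an unadjusted p under 0.05 without control replicate 4 or with the red blood cell score as a covariate. Control replicates 1, 4 and 5 were high, the same 3 controls that had the highest scores of neocortical neuron markers, 4.28, 4.39 and 4.42 beside 3.09 and 3.47 in the others. Among the ICI libraries replicate 5 had both the highest Trbc2 level and the highest neocortical score, 4.16. With 4 tissue scores as covariates, the neocortical one among them, the T cell list had a median of -0.39. Of its 4 tested genes, 1 was lower at an unadjusted p under 0.05 by edgeR in that fit. The part of neocortical tissue in the Trbc2 values was otherwise not tested.

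Astrocyte identity genes were balanced, with 5 of 12 higher and 7 lower and a median log2 fold change of -0.0092. Reactive astrocyte genes were lower in 15 of 19, with a median of -0.32, which was -0.18 without ICI replicate 1 and -0.10 with the red blood cell score as a covariate. Gfap, the filament protein that reactive astrocytes accumulate, was at 347 CPM in control and 343 CPM in ICI, a log2 fold change of -0.013 (SE 0.16) whose sign also changed in 5. Aspg, an asparaginase, went from 3.68 ± 0.526 to 2.27 ± 0.714 CPM and Steap4, a metalloreductase, from 1.09 ± 0.838 to 0.29 ± 0.315 CPM, both at an unadjusted p under 0.05 and with overlap. Myelin genes were lower in 13 of 14, with a median of -0.27, but their libraries overlapped broadly. Mbp, myelin basic protein, was at 1441, 3383, 2021, 4004 and 4173 CPM in control and at 1536, 2581, 2123, 3604 and 2109 CPM in ICI, and 0 of the 14 genes had an unadjusted p under 0.05 by edgeR. Over the alternatives the median ran from -0.45, without ICI replicate 4, to -0.036. It was -0.16 without control replicate 4, -0.14 without control replicate 5, -0.15 without ICI replicate 1, -0.077 with 4 tissue scores as covariates and -0.036, with 10 of 14 lower, with the red blood cell score. Of 12 oligodendrocyte precursor genes 9 were lower, among them the transcription factors Olig1 and Olig2, with log2 fold changes of -0.32 and -0.29. Their list had a median of -0.11, which was -0.061 without control replicate 4, and then 0 members had an unadjusted p under 0.05 by edgeR.

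**Figure D3:**
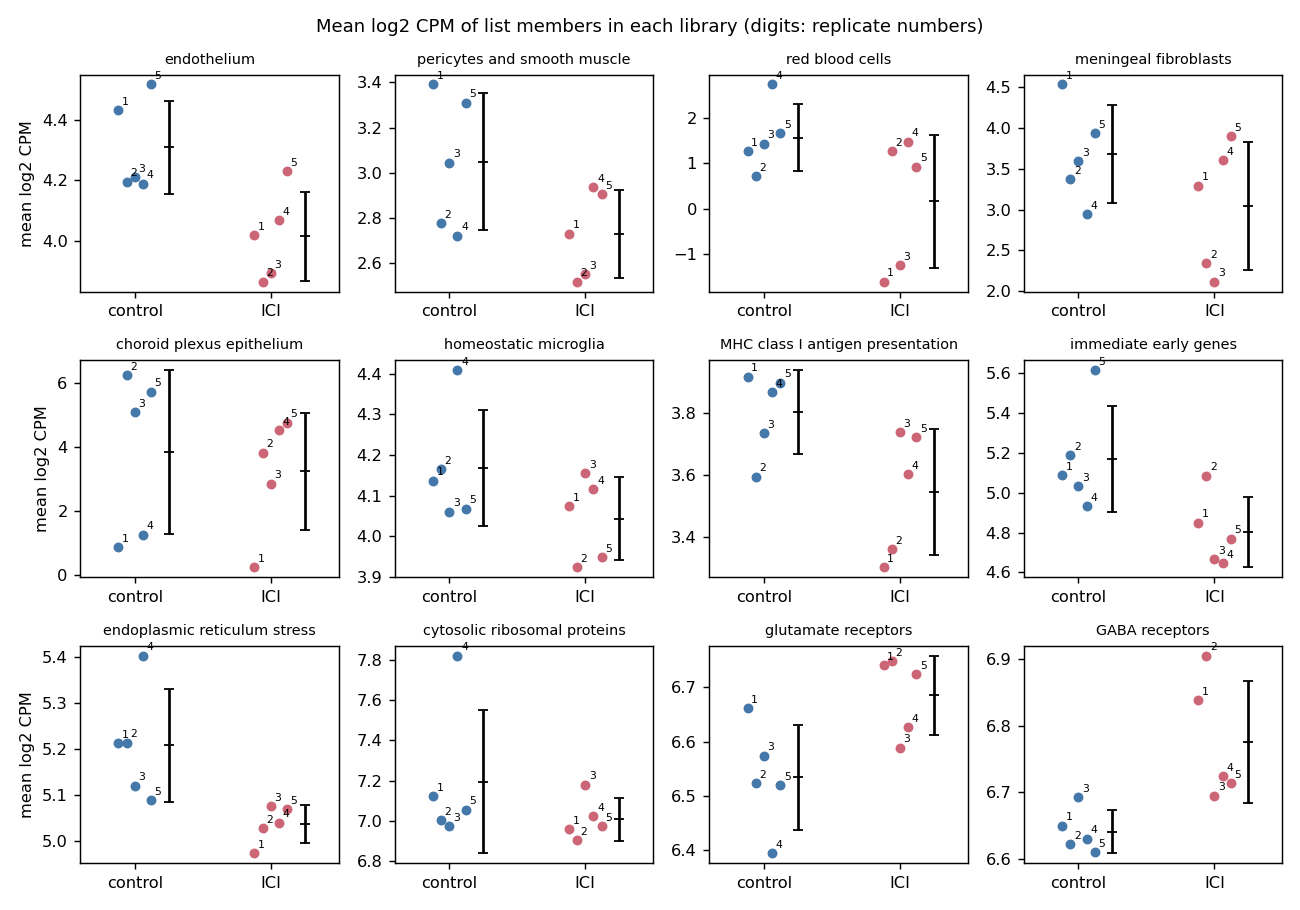
Score of 12 lists, the mean log2 CPM of their tested members, in each library; digits are replicate numbers, and bars show the mean and SD of 5 libraries. Endoplasmic reticulum stress (control 5.09 to 5.40, ICI 4.97 to 5.08) and GABA receptors (control 6.61 to 6.69, ICI 6.69 to 6.90) are the lists of these 12 whose libraries did not overlap.

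Immediate early genes, which neurons switch on within minutes of activity, were lower in 20 of 24, with a median log2 fold change of -0.37. Btg2, an antiproliferative early gene, was at 20.4, 28.5, 21.7, 19.5 and 27.3 CPM in control and at 16.3, 17.2, 17.7, 12.3 and 13.6 CPM in ICI. Npas4, a transcription factor specific to neuronal activity, was at 28.9, 27.6, 15.8, 15.1 and 28.7 CPM in control and at 12.9, 17.4, 8.14, 11 and 16.2 CPM in ICI. Btg2 was without overlap, whereas control replicates 3 and 4 lay within the ICI range for Npas4. Klf4 and Ier2 also had an unadjusted p under 0.05, with log2 fold changes of -0.61 and -0.81. Arc, a synaptic protein that follows activity, lay between 106 and 402 CPM in control, with a median of 155 CPM, and between 96.2 and 175 CPM in ICI. Control replicate 5 was far above the rest for Arc, and for Egr2 as well, at 14.3 CPM. The list's scores were 5.09, 5.19, 5.03, 4.93 and 5.62 in control and 4.85, 5.08, 4.66, 4.64 and 4.77 in ICI. Without control replicate 5 the median was -0.28, and with the red blood cell score as a covariate 17 of 24 were lower and 1 had an unadjusted p under 0.05. The share at an unadjusted p under 0.05 was 16.7%, beside 3.15% of all genes.

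Genes of endoplasmic reticulum stress, among them the chaperones that cells induce when unfolded proteins accumulate there, were lower in 15 of 16, with a median log2 fold change of -0.19, and 4 (25%) had an unadjusted p under 0.05. The list's scores were 5.21, 5.21, 5.12, 5.40 and 5.09 in control and 4.97, 5.03, 5.08, 5.04 and 5.07 in ICI, without overlap by a narrow margin. Pdia6, a protein disulfide isomerase, was at 130.9, 139.3, 128.3, 146.2 and 117 CPM in control and at 105.6, 115, 110.1, 106.2 and 111.6 CPM in ICI. Hsp90b1, the chaperone GRP94, was at 310, 317, 291, 363 and 299 CPM in control and at 242, 283, 236, 262 and 265 CPM in ICI. Neither overlapped between the groups, and the log2 fold changes were -0.27 (SE 0.078) and -0.29 (SE 0.090). Hspa5, the chaperone BiP, was at 225, 293, 250, 263 and 220 CPM in control and at 192, 214, 194, 226 and 233 CPM in ICI. ICI replicates 4 and 5 lay within the control range, and the log2 fold change was -0.24 (SE 0.095). Sdf2l1, a partner of BiP, had a log2 fold change of -0.33 (SE 0.14), and Sesn2, a stress gene of the amino acid response, had the highest of the list, 0.20. Without control replicate 4 the median was -0.10, with 13 of 16 lower and 4 still at an unadjusted p under 0.05. With the red blood cell score as a covariate it was -0.090, with 11 of 16 lower and 2 at an unadjusted p under 0.05.

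Several of these genes carry the classic element that ATF6 and XBP1 act on, and its letters are shown because 3 of the 4 members with an unadjusted p under 0.05, all but Sdf2l1, hold it. The motif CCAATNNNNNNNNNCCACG, named the endoplasmic reticulum stress element, was searched on both strands in the 250 bases before each gene start in RefSeq promoters of build GRCm38.p6. It occurred in 37 of 32851 promoters (0.113%), and in 4 of the 15 listed genes that had a promoter sequence. Log2 fold changes ran from -0.29 to -0.19 in these 4, with a median of -0.26. In the 11 without the motif they ran from -0.57, the lowest of the list, to 0.20, with a median of -0.14. A link between the motif and the levels was not tested. The sequences follow the gene's strand, with 20 bases on each side in lower case and the motif, or its reverse complement, in capitals. That of Hspa5 (chr2:34772005-34772063, plus strand) reads in the forward sense, as does that of Pdia6 (chr12:17266471-17266529, plus strand). Hsp90b1 holds 1 copy in each sense (chr10:86705618-86705676 and chr10:86705513-86705571, minus strand), and Creld2 (chr15:88819500-88819558, plus strand), which encodes a chaperone of the same compartment, holds the reverse one.
Hspa5: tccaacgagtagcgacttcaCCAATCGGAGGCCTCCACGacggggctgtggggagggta
Pdia6: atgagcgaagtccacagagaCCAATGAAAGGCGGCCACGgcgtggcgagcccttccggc
Hsp90b1, forward copy: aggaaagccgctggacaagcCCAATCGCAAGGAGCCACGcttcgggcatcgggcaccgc
Hsp90b1, reverse copy: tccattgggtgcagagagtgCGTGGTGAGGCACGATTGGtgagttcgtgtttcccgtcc
Creld2: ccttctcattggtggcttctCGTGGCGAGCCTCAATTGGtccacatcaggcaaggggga

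A match is a description of these letters, and no match says only that they are not in this window.

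Ribosomal and respiratory chain genes were lower almost throughout, and the size of these differences rested on control replicate 4. All 54 cytosolic ribosomal protein genes were lower, with a median log2 fold change of -0.22, and 45 of 48 nuclear-encoded respiratory chain genes, with -0.19. Of the 13 mitochondrially encoded genes 12 were lower, with a median of -0.31. The ribosomal score was 7.82 in control replicate 4, between 6.97 and 7.12 in the other controls, and between 6.90 and 7.18 in ICI. Apart from control replicate 4 the ICI range enclosed that of the controls. Without that library, 45 of 54 ribosomal genes were lower with a median of -0.034, 29 of 48 nuclear-encoded respiratory chain genes with -0.011, and 10 of 13 mitochondrially encoded genes with -0.092. Rpl24, the ribosomal gene with the lowest fold change, was at 62.4 CPM in control replicate 4 and between 22.6 and 31.2 CPM in the other 9 libraries.

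Fold changes followed gene length. When the tested genes were divided into 5 equal bins by summed exon length, in the shortest bin, up to 1817 bases, the median log2 fold change was -0.13 and 68.2% were lower; in the longest, from 6494 bases, it was 0.10 and 27% were lower. Without control replicate 4 the trend was smaller, with medians of -0.031 and 0.045 and 57% and 34.8% of the genes lower. The difference between the shortest and the longest bin in a library, relative to the mean of all, was 0.67 in control replicate 4 and between -0.19 and 0.060 in the other 9 libraries of both groups. The median length was 2344 bases for the 581 lower genes, 6094 bases for the 383 higher ones and 3619 bases for all tested.

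**Figure D4:**
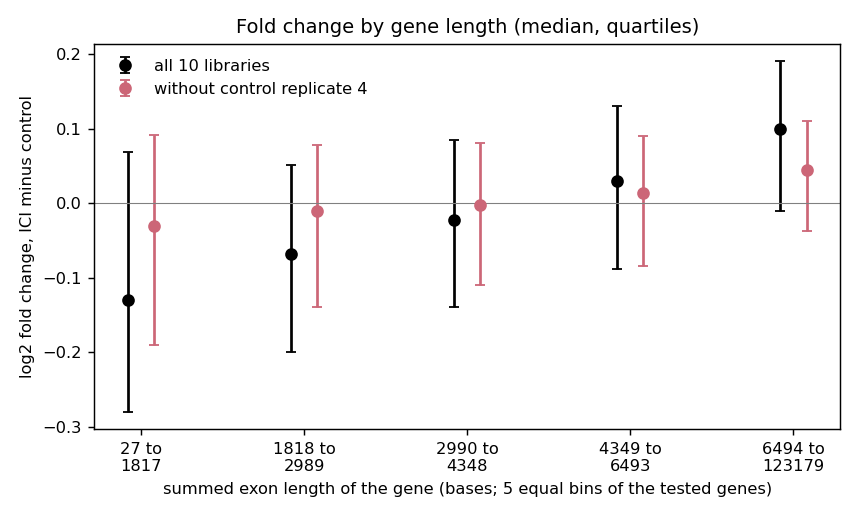
Log2 fold change, ICI minus control, in 5 equal bins of the tested genes by summed exon length in bases; points are medians and bars the quartiles of the genes. With all 10 libraries (black) the medians go from -0.13 to 0.10, and without control replicate 4 (red) from -0.031 to 0.045.

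Synaptic genes were higher more often than lower. Of 24 glutamate receptor genes 21 were higher, with a median log2 fold change of 0.17. Grm7, a presynaptic metabotropic receptor, was at 58.6, 54, 55, 45.3 and 47.8 CPM in control and at 61.6, 65.4, 55.6, 55.2 and 62.2 CPM in ICI, and had the only unadjusted p under 0.05 of the list. Only control replicate 1 lay within the ICI range, and the log2 fold change was 0.20 (SE 0.082). Gria1, the main AMPA receptor subunit of CA1, was at 667, 1370, 1162, 649 and 788 CPM in control and at 1096, 1214, 1417, 1292 and 732 CPM in ICI. Its groups overlapped widely, with a log2 fold change of 0.31 (SE 0.27). Of 17 postsynaptic scaffold genes 15 were higher, with a median of 0.16, and of 18 presynaptic genes 14, with 0.084. The members of these lists with an unadjusted p under 0.05 were Gphn, gephyrin, the scaffold of inhibitory synapses, from 65.1 ± 3.64 to 72.7 ± 7.66 CPM, and Pclo, piccolo, of the active zone, from 226 ± 45.9 to 292 ± 46.8 CPM. Without control replicate 4 the glutamate receptor median was 0.12, with 19 of 24 higher, the postsynaptic median 0.10 and the presynaptic one 0.061. The presynaptic median also ran from 0.039, without ICI replicate 1, to 0.14, without control replicate 1, was 0.051 without control replicate 5, and was 0.036 with the red blood cell score as a covariate. None of Grm7, Gphn and Pclo then had an unadjusted p under 0.05 by edgeR, which left 0 such members in these 3 lists.

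GABA receptor genes were higher in 10 of 14, with a median of 0.10, and all their ICI scores were above the controls, at 6.65, 6.62, 6.69, 6.63 and 6.61 in control and 6.84, 6.90, 6.69, 6.72 and 6.71 in ICI. The margin was narrow, with the highest control at 6.6924 and the lowest ICI at 6.6948, and 0 of the 14 genes had an unadjusted p under 0.05 by edgeR. Gabbr1, a subunit of the metabotropic GABA-B receptor, was at 800, 898, 877, 752 and 826 CPM in control and at 923, 917, 970, 934 and 841 CPM in ICI. ICI replicate 5 lay among the controls, and the log2 fold change was 0.14 (SE 0.070). Gabrb2 had the highest fold change, 0.66 (SE 0.35), with control replicate 4 at 14.9 CPM and the other controls between 61.2 and 94 CPM. Without control replicate 4, 13 of 14 were higher, with a median of 0.11, and without ICI replicate 2 or control replicate 5 the median was 0.051 or 0.063.

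Markers of the principal neurons differed little. All 6 CA3 markers, 6 of 7 CA1 markers and 9 of 10 dentate granule cell markers were higher, with medians of 0.11, 0.23 and 0.072, and 0 of them had an unadjusted p under 0.05 by edgeR. Dentate scores ran from 3.85 to 6.20 in control and from 4.23 to 6.16 in ICI, a wider range within each group than between the group means, 5.14 and 5.31. These directions depended on the analysis. Without control replicate 4 the dentate median was 0.0032, with 6 of 10 higher, and the CA1 median 0.12. With the red blood cell score as a covariate 2 of 10 dentate markers were higher, with a median of -0.054, and with 4 tissue scores 2 of 6 CA3 markers, with -0.043. Leaving out 1 library moved the CA3 median between 0.0073, without ICI replicate 3, and 0.27, without ICI replicate 5. It moved the dentate median between -0.17, without ICI replicate 3, and 0.33, without control replicate 2. General neuronal markers had a median of -0.023, which changed sign in 7 of the 20 alternatives. Among interneuron markers, Pvalb, parvalbumin, had the lowest log2 fold change, -0.85 (SE 0.41), from 35.7 ± 21.4 to 19.8 ± 3.55 CPM, and Reln, reelin, the highest, 0.48 (SE 0.34). Over the alternatives Pvalb ran from -1.02 to -0.26 and Reln from 0.27 to 0.88.

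Clock genes were higher in 13 of 18, with a median of 0.12, led by Per2, from 46.8 ± 13.7 to 65.6 ± 6.91 CPM (unadjusted p = 0.0519 by edgeR). By edgeR without covariates 0 of the 18 had an unadjusted p under 0.05. With 4 tissue scores as covariates 6 (33.3%) were higher at that threshold, beside 3.43% of all genes. With the replicate number as a block 3 (16.7%) were, beside 1.89%. Without control replicate 4, or with the red blood cell score as a covariate, 0 were. Glucocorticoid-responsive genes were balanced, with 7 of 15 higher and a median of -0.0061 that changed sign in 9 of the 20 alternatives, and Cdkn1a, a cell cycle inhibitor, was the member with an unadjusted p under 0.05, with a log2 fold change of -0.71, although 0 members had one by edgeR without control replicate 4. Heat shock genes had a median of -0.035, cholesterol synthesis and transport one of -0.036, which changed sign in 3, and neurodegeneration-associated genes one of -0.0073 with 12 of 24 higher. Among the last, Clu, clusterin, went from 846 ± 62.5 to 750 ± 46.4 CPM, while App, the amyloid precursor, went from 1895 ± 207 to 2086 ± 68.5 CPM. Adult neurogenesis genes were higher in 12 of 18 and neurotrophin genes in 7 of 11, each with a median of 0.13 and with 0 at an unadjusted p under 0.05 by edgeR. These medians were 0.085 and 0.029 without control replicate 4, and that of neurogenesis was 0.046 without control replicate 5 and 0.048 without ICI replicate 4. Of the 11 neutrophil and monocyte genes only Lyz2 and the cytokine receptor gene Csf3r could be tested. Csf3r went from 6.81 ± 0.721 to 6.01 ± 0.336 CPM, and the score of both, 2.73 ± 0.059 in control and 2.24 ± 0.22 in ICI, did not overlap. That score rests on these genes alone, with log2 fold changes of -0.78 for Lyz2, a leading gene chosen by its p, and -0.18 for Csf3r. Scores were without overlap for 3 of the 50 lists.

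The effect of ICI was then set beside that in tumour-bearing mice, melanoma plus ICI minus melanoma, which shares no library with it. Lsr was at 4.51 ± 0.181 CPM in melanoma and 5.88 ± 0.518 CPM in melanoma plus ICI (SD, n = 5 each), so that with a tumour its log2 fold change was 0.38 (SE 0.12) and the difference between the effects 1.02 (SE 0.16). By edgeR's interaction test 0 of 18427 genes (0%) had an adjusted p under 0.05. The smallest adjusted p was that of Lsr, 0.0912, and 1892 genes (10.3%) had an unadjusted p under 0.05. The count at an adjusted p under 0.05 was 47 by DESeq2, 19 by limma voom and 30 with 1 surrogate variable, and it was 1, Lsr, in edgeR without control replicate 4. Pecam1 had a log2 fold change of 0.19 and Cldn5 one of 0.65 with a tumour, and endothelial markers a median of 0.090 with 9 of 15 higher. Markers of neighbouring tissue differed with a tumour as well. The median was 1.37 for choroid plexus, with 14 of 14 higher, and 0.67 for meningeal fibroblasts, with 12 of 12 higher. For striatal neurons it was -1.10, with 0 of 12 higher. The part of such tissue in the vascular values with a tumour was not tested.

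Of the 964 genes at an unadjusted p under 0.05 without a tumour, 205 (21.3%) had the same sign with a tumour, beside 34.2% of all tested genes. For the 24 leading genes this was 4. Of the genes under the threshold in both comparisons, 108 had opposite signs and 4 the same. The choroid plexus and meningeal fibroblast lists, lower throughout without a tumour, were higher throughout with a tumour. A library of the melanoma plus ICI group, replicate 1, also had an excess of short transcripts, with a difference of 0.40 between the shortest and the longest bin. Without both libraries, 45.9% of all genes and 277 of 904 genes (30.6%) had the same sign, and 170 genes under the threshold in both comparisons had opposite signs and 18 the same. Immediate early genes had a median of -0.12 with a tumour, and the medians of ribosomal, respiratory chain and MHC class I genes were 0.049, 0.12 and 0.20.

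**Figure D5:**
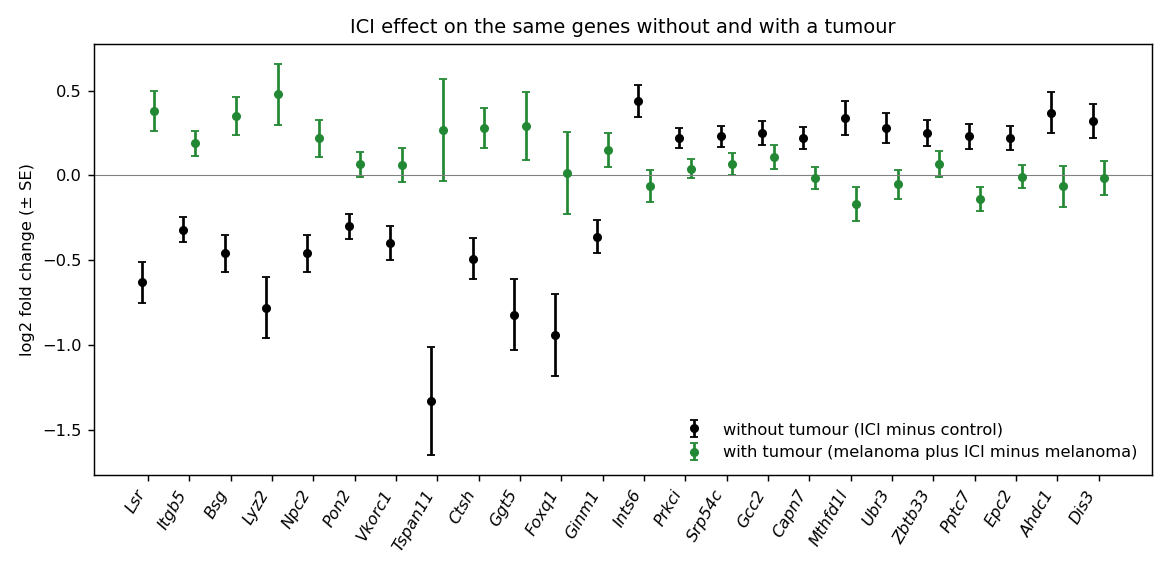
Log2 fold change for ICI, with its SE, of the 24 leading genes in tumour-free mice (black, ICI minus control) and tumour-bearing mice (green, melanoma plus ICI minus melanoma), from 5 libraries per group. Lsr is at -0.63 without and 0.38 with a tumour, and 4 of the 24 genes have the same sign in both.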

How the data were processed

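Per the labels' protocols, Azenta extracted RNA from frozen hippocampi (Qiagen RNeasy Plus Universal Mini) and sequenced it. The authors deposited raw counts per Ensembl gene for each library. STAR 2.5.2b and DESeq2 1.16.1 are named in the submitters' processing notes, without their roles. Alignment settings, the counting step, the genome build and the use of strand are not given in the sources used here. Symbols came from a table of gene names, which matched 49326 of 49671 identifiers; the 345 others held 0.0702% of the counts, and 132 identifiers share a symbol. Coordinates and overlaps are those in the deposited tables; of their genes, 49412 are in GENCODE M21 and 45214 have the same start and end there.

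Counts of all 20 libraries were fitted with edgeR 4.0.16 in R 4.3.3, since the groups then share 1 estimate of the spread, with 16 residual degrees of freedom. The filter (filterByExpr, minimum count 10, minimum total 15) kept 18427 genes; 35059 were tested without it. Scaling used TMM factors between 0.9555 and 1.043, and the test was the robust quasi-likelihood test with Benjamini-Hochberg adjustment at 0.05. Levels are CPM, per 1000000 counts, and scores use log2 CPM with a prior count of 2. No library was left out, and the chi-square per gene between replicates within the control and ICI groups, 12.7 to 134 over 20 pairs, showed no library of these 10 deposited again in its group. The test was checked on simulated data. Named genes are the 12 higher and 12 lower genes of smallest p among those that have a symbol and average 1 CPM or more, the first 5 of each with every library. From each list they are the 2 most abundant genes, the highest and lowest fold change, and any at an unadjusted p under 0.05, and from the antibody targets also their ligands; others were chosen after their values were seen, and some genes that the rule names are not reported here. The groups, lists and genes were chosen with earlier results of these data known. Alternatives used limma 3.58.1, DESeq2 1.42.0 and sva 3.50.0, no filter, other scalings, covariates, a block and leaving out each library. The red blood cell covariate and leaving out both libraries that stood apart were chosen after seeing the data.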

Additional observations from a re-analysis of the deposited data

Results flagged for a closer look

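In 8 of 154 groups of 5 libraries, 1 library lay far from the others for a reported value, where chance gives about 1 in 20. Control replicate 4 accounted for 5 of them. Its mitochondrial transcripts took 5.1% of the counts, beside 3.27% to 3.62% in the other controls. Its score was 7.77 for mitochondrially encoded respiratory chain genes (others 6.82 to 6.94), 7.35 for nuclear-encoded ones (others 6.56 to 6.71) and 7.82 for cytosolic ribosomal proteins (others 6.97 to 7.12). Its Dis3 level was 8.72 CPM, beside 11.7 to 12.2 CPM.

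In the ICI group, replicate 4 had a reactive astrocyte score of 2.47, above 2.05 to 2.10 in the others. Replicate 1 had a score of 5.05 for neurotrophins and their receptors, below 5.36 to 5.47. In replicate 5 mitochondrial transcripts took 3.5% of the counts, beside 3.08% to 3.18%.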

How the results depend on the processing

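Of 114 genes whose fold change was recomputed, 108 kept their direction in all 20 alternatives; of 50 list medians, 34 kept their sign in all 20, 16 changed it at least once, and 43 were off by more than 1.5 times at least once. Only 6 moved by more than 1 SD of the list's score between libraries, in 13 of 1000 values, a wide tolerance where libraries vary. The cause was not tested for any of the changes below. Genes past the adjusted threshold numbered 1 with DESeq2 and 2 with 1 surrogate variable. Genes higher at an unadjusted p under 0.05 numbered 622 with limma voom, 181 with only the ICI and control libraries, 632 with 4 tissue scores and 136 with the red blood cell score. Leaving out 1 library gave 187 to 816, with 816 without control replicate 2, 204 without control replicate 4, 231 without ICI replicate 1 and 187 without ICI replicate 2. Lower genes numbered 984 with no filter (more genes tested), 212 with the red blood cell score, and 388 to 946 when 1 library was left out, the highest without control replicate 2. Genes whose effect differed with a tumour numbered 47 with DESeq2, 19 with limma voom, 30 with 1 surrogate variable, 0 to 2 with 1 library left out (Tmem45a and Lsr without ICI replicate 4) and 1 without both libraries that stood apart; this test was not run with only 2 groups.

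Shifts within that SD included choroid plexus, 0.051 with tissue scores, of which its own is 1, and ribosomal genes, -0.034 without control replicate 4. Beyond it lay the following medians. Neurons were at 0.10 with 1 surrogate variable. Checkpoint molecules were at -0.015 with limma voom, -0.029 with tissue scores and -0.15 without control replicate 3, while their other leave-one-out values, up to -0.051, stayed within it. Reactive astrocytes were at -0.17 with tissue scores and -0.10 with the red blood cell score. Heat shock genes were at 0.050 with 1 surrogate variable and with the red blood cell score. Endoplasmic reticulum stress was at -0.093 with limma voom and -0.090 with the red blood cell score. Neurodegeneration genes were at 0.023 with tissue scores, -0.028 without control replicate 2 and 0.014 without ICI replicate 4. Signs changed for Abcc9 (-0.057 with 1 surrogate variable, -0.014 without control replicate 4 and without both libraries, -0.014 to 0.25 with 1 library left out), Csf1r (-0.028 with 1 surrogate variable, -0.030 without control replicate 4 and without both libraries, -0.0023 without ICI replicate 4, -0.013 with the red blood cell score, -0.030 to 0.051 with 1 library left out), Ttr (0.40 with tissue scores), C3 (-0.31 to 0.90, the lowest without ICI replicate 4), Cd274 (-0.070 with 1 surrogate variable, -0.074 with the red blood cell score) and Gfap (-0.12 to 0.077 with 1 library left out, 0.022 with the red blood cell score).

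With the replicate number as a replicate block, 0 genes passed, 348 were higher and 569 lower at an unadjusted p under 0.05. Same-numbered libraries correlated at 0.528, 0.163, -0.0345, -0.133 and 0.137 in their deviations from the group means, and 1 of 5 correlated best with its own number. What the numbers stand for is not given, and 5 pairs are too few to show whether same-numbered libraries share more than a number. Counts of a few per library left the antibody targets and most T cell genes untested.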

Other observations

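Genes of progenitors and of low abundance differed in single libraries. Eomes, a transcription factor of intermediate progenitors, was at 0.118, 1.11, 0.0911, 2.12 and 1.19 CPM in control and at 0, 3.05, 0.429, 9.72 and 2.89 CPM in ICI. ICI replicate 4 was highest, and the log2 fold change was 1.81 (SE 1.10). Igha, the immunoglobulin A heavy chain, had 1 count over the 5 control libraries and 21 over the 5 ICI libraries, almost all of them in ICI replicate 4, at 0.824 CPM.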
